A study of Homo sapiens with 6 samples.

Results

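Focal adhesion plaque genes encode the cytoplasmic proteins that join integrins to the actin cytoskeleton, without the integrins themselves. The 46 genes were taken by name from a fixed list of talins, kindlins, the ILK-PINCH-parvin complex, tensins, paxillins, adhesion kinases and their adaptors, GIT-PIX proteins, actin crosslinkers, zyxin-type LIM proteins and KANKs. They were 46 of the 25680 genes with counts: 45 were found under their own symbols and TNS2 under its older symbol TENC1, a synonym that RefSeq lists. Of the 46, 44 had enough counts to be tested. The samples were U87 cells, a glioblastoma cell line of wild-type genotype, all given 500 nM of the cyclic peptide EPP6 carrying a rhodamine label for 1 hour, and sorted on their fluorescence. The high-uptake libraries came from the top 30% and the low-uptake libraries from the bottom 30%, with 3 libraries of each (replicates 2, 3 and 4). No untreated cells are among the samples, so the comparison was high against low uptake within treated, detached cells of 1 line. The labels do not say whether the replicates were separate cultures, so p-values measure the spread between these libraries, which may be technical.

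In a focal adhesion, talins and kindlins bind the tails of integrin beta subunits and switch the receptor to its active form. Vinculin, the parvins, alpha-actinins and filamins then carry the load to actin filaments, and zyxin and Ena/VASP proteins promote actin assembly there. FAK, Src-family kinases, paxillin and p130Cas pass the signal on to small GTPases, and KANK proteins connect the rim of the adhesion to cortical microtubules. Glioblastoma cells use these structures to grip and invade surrounding tissue.

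Each library held between 13712263 and 40742857 counted reads. Summed over the 46 plaque genes, levels were 5597, 6511 and 6067 TPM in high replicates 2, 3 and 4, against 5481, 6055 and 5899.7 TPM in low replicates 2, 3 and 4 (TPM, the authors' unit scaled for gene length and depth). The mesenchymal and glioma genes VIM and CD44 averaged 11825 and 675 TPM, whereas GFAP, S100B and SOX2 averaged 0.370, 0.0295 and 0.0072 TPM. CHI3L1 averaged 113 TPM, EGFR 46.7, NES 9.24, OLIG2 1.16 and PDGFRA 1.05 TPM. CHI3L1 had 4754, 1626 and 3347 counts in high replicates 2, 3 and 4, against 1304, 1414 and 1491 in low replicates 2, 3 and 4. The 8 tested genes of this list had log2 fold changes from -0.46 to 0.99, none with an edgeR adjusted p under 0.05. Markers of immune cells were under 1 TPM for 7 of 8 genes, AIF1 was at 0 in every library, and CD68 was the exception at 341 TPM. Of the markers of epithelial and endothelial cells, 4 of 6 and 3 of 5 were under 1 TPM. Log2 fold changes of the tested ones ran from -0.13 to 0.33 (epithelial) and from -0.49 to 0.62 (endothelial), none with an edgeR adjusted p under 0.05. Summed neuronal markers ranged from 44.9 to 52.8 TPM in high uptake and from 35.9 to 39.3 TPM in low uptake, with STMN2 at 0 throughout and 2 of 6 genes under 1 TPM. Among them SNAP25, the most abundant at 22.4 TPM, rose (log2 0.80, edgeR adjusted p = 0.00987) and MAP2 fell (log2 -0.40, edgeR adjusted p = 0.0415). Summed markers of smooth muscle and pericytes ranged from 31.9 to 38.0 TPM in high uptake and from 24.4 to 27.6 TPM in low uptake, with 2 of 6 under 1 TPM and most of the sum in ACTA2 (23.2 TPM, log2 0.48), while RGS5 had a log2 fold change of -0.19. The glioma and mesenchymal list summed to between 12799.6 and 13539 TPM in high uptake and between 12034 and 12536 TPM in low uptake. The part of these marker differences in the results below was not tested.

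Between high and low uptake, few plaque genes passed the threshold in edgeR, and the differences of those that did were small. KANK1, FYN, PARVA and KANK2 rose in high uptake, by 1.25-fold to 1.51-fold, and TNS1 fell to 0.595 of its level in low uptake. These 5 were 11.4% of the 44 tested, against 4.29% of all 14598 tested genes (edgeR's quasi-likelihood test, Benjamini-Hochberg adjusted p under 0.05 over all tested genes). By direction, 9.09% of the plaque genes rose, against 3.03% of all genes, and 2.27% fell, against 1.26%. The other 39 did not pass, and 22 of them had a log2 fold change within 0.1 of 0. Not passing does not show that a gene was unchanged. In simulated counts with the same spread for all genes, edgeR recovered 24% of 1.3-fold and 74% of 1.5-fold changes. The median log2 fold change was 0.04 over the 44 plaque genes and -0.00 over all genes. In bulk RNA, fewer cells expressing a gene and less RNA per cell cannot be told apart.

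The count depended on single libraries. Omitting high replicate 2 left 3 (1.95% of all genes called) and omitting high replicate 4 left 3 (2.63%). Omitting low replicate 3 left 2 (1.85%), and omitting low replicate 4 left 1 (1.55%). Without high replicate 3 there were 7 (4.92%), and without low replicate 2 there were 5 (3.73%). In limma-voom it was again 5, the same genes, against 4.4% of all genes. When the trend of every library with GC content was taken out, 17 plaque genes passed, or 38.6% of the 44 against 17.9% of all genes. Of these 13 were higher, a direction that 10.2% of all genes then took, and 4 lower, against 7.72%. All genes called were then 57.0% higher, against 70.6% as first tested.

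**Figure D1:**
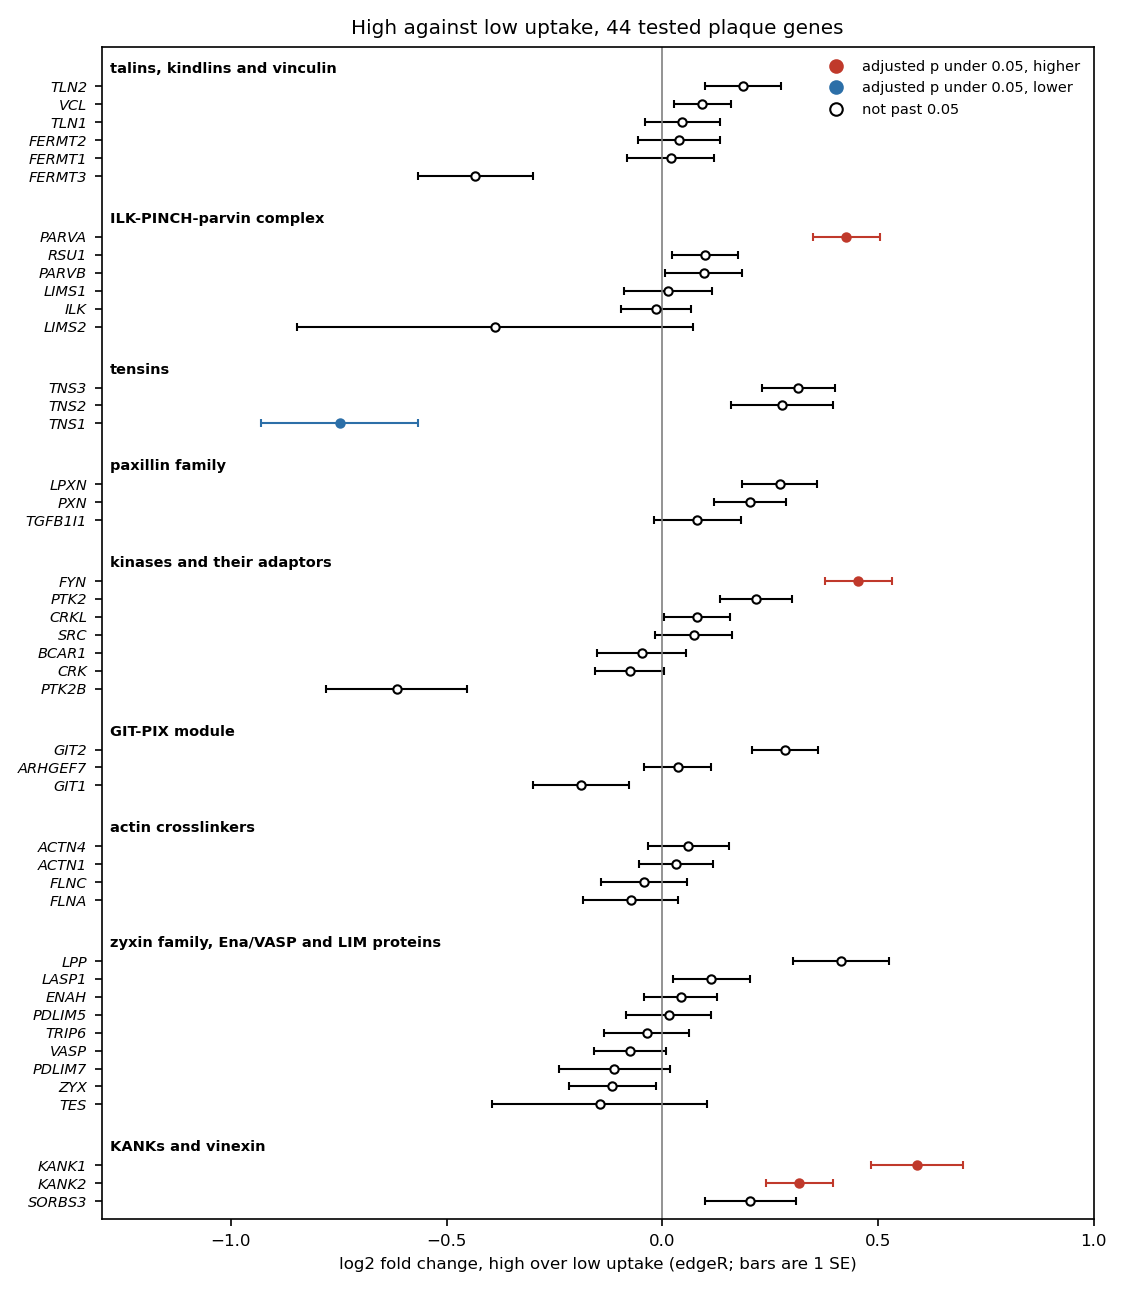
Log2 fold change (x axis, high over low uptake, edgeR, bars of 1 SE) of the 44 tested plaque genes, grouped by role. KANK1, FYN, PARVA and KANK2 lie to the right with filled points and TNS1 to the left at -0.75, while most others lie within 0.2 of 0.

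KANK1 and KANK2 encode ankyrin-repeat proteins that bind talin at the edge of an adhesion. KANK1 stood at 27.3, 29.2 and 27.6 CPM (counts scaled to library size with TMM factors) in high replicates 2, 3 and 4, against 16.2, 20.4 and 19.4 CPM in low replicates 2, 3 and 4. Every high-uptake library lay well above every low-uptake library, with a log2 fold change of 0.59 (SE 0.107, edgeR adjusted p = 0.0112). This was the only plaque gene of the 5 that kept its call in all 17 alternative settings, with log2 fold changes from 0.49 to 0.66. KANK2, at 115 TPM on average against 8.49 TPM for KANK1, had 265, 291 and 265 CPM in the high-uptake libraries, against 206, 228 and 224 CPM in low uptake. The groups did not overlap here either, although the gap was smaller relative to the level (log2 0.32, SE 0.0771, edgeR adjusted p = 0.0425). Omitting any single library ended the call (adjusted p between 0.0761 and 0.149), as did taking out the trend with gene length (log2 0.28, adjusted p = 0.102). SORBS3, which encodes the vinculin-binding adaptor vinexin, stood at 95.8 ± 12.0 CPM in the high-uptake libraries, against 83.0 ± 7.81 CPM in low uptake (SD, n = 3 each), with overlapping groups (log2 0.20, edgeR adjusted p = 0.343).

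FYN, a Src-family kinase that acts beside integrins, had 138, 129 and 122 CPM in the high-uptake libraries, against 94.0, 95.6 and 94.4 CPM in the low-uptake libraries. The low-uptake values were nearly identical and all high-uptake values lay above them (log2 0.45, SE 0.0780, edgeR adjusted p = 0.00891). Without low replicate 4 its adjusted p was 0.0578. SRC, the founding kinase of the family, stood at 70.7 ± 3.64 CPM in the high-uptake libraries, against 67.2 ± 5.25 CPM in low uptake (log2 0.07, edgeR adjusted p = 0.728). PTK2, which encodes FAK, stood at 182, 162 and 162 CPM in the high-uptake libraries, against 156, 138 and 142 CPM in low uptake, without overlap but short of the threshold (log2 0.22, SE 0.0843, edgeR adjusted p = 0.194). PTK2B, which encodes the related kinase PYK2, was scarce and pointed the other way. It had 5.74, 8.31 and 7.86 CPM in the high-uptake libraries, against 10.5, 13.0 and 9.58 CPM in low uptake (log2 -0.62, SE 0.163, edgeR adjusted p = 0.0595). The adaptor genes BCAR1 (p130Cas), CRK and CRKL had log2 fold changes of -0.05, -0.08 and 0.08, none past the threshold. NEDD9, a relative of BCAR1, was not tested, with at most 3 counts in a library.

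PARVA encodes alpha-parvin, the actin-binding arm of the complex that it forms with the pseudokinase ILK and the LIM protein PINCH. It stood at 167, 146 and 158 CPM in the high-uptake libraries, against 117, 118 and 116 CPM in low uptake. No low-uptake library came near the lowest high-uptake value (log2 0.43, SE 0.0780, edgeR adjusted p = 0.0120). The call was lost without low replicate 3 (adjusted p = 0.0506) or low replicate 4 (adjusted p = 0.0761). ILK itself had 221, 247 and 222 CPM in the high-uptake libraries, against 221, 249 and 226 CPM in low uptake. The groups overlapped fully (log2 -0.01, SE 0.0810), and 2 SE on either side span 0.885-fold to 1.11-fold. PARVB (log2 0.10), RSU1, a PINCH-binding suppressor of Ras (log2 0.10), and LIMS1, which encodes PINCH1 (log2 0.01), did not pass. LIMS1 has close copies elsewhere in the genome, so its counts are uncertain. LIMS2, the second PINCH gene, had 7 to 17 counts in high uptake and 13 in each low-uptake library, too few to show a small difference (log2 -0.39, SE 0.458).

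Tensins cap actin filaments and bind integrin tails, and TNS1 was the 1 plaque gene that fell. It had 127, 56 and 106 counts in high replicates 2, 3 and 4, against 180, 153 and 117 counts in low replicates 2, 3 and 4. In CPM these were 3.14, 4.16 and 3.18 in high uptake and 4.66, 6.95 and 5.72 in low uptake. The highest high-uptake value lay just below the lowest low-uptake value (log2 -0.75, SE 0.183, edgeR adjusted p = 0.0435). Omitting either high replicate 2 or 4, or low replicate 3 or 4, ended the call (adjusted p between 0.119 and 0.166, log2 between -0.75 and -0.59). TNS3 was more abundant, at 54.2, 54.3 and 50.2 CPM in the high-uptake libraries, against 42.8, 43.8 and 40.8 CPM in low uptake. Its groups did not overlap, and the difference fell short of the threshold (log2 0.32, SE 0.0837, edgeR adjusted p = 0.0597). TNS2, listed as TENC1, stood at 36.7 ± 5.43 CPM in the high-uptake libraries, against 30.2 ± 2.93 CPM in low uptake (log2 0.28, edgeR adjusted p = 0.242). TNS4, which other cell types use in place of the larger tensins, was not tested, with at most 3 counts in a library.

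**Figure D2:**
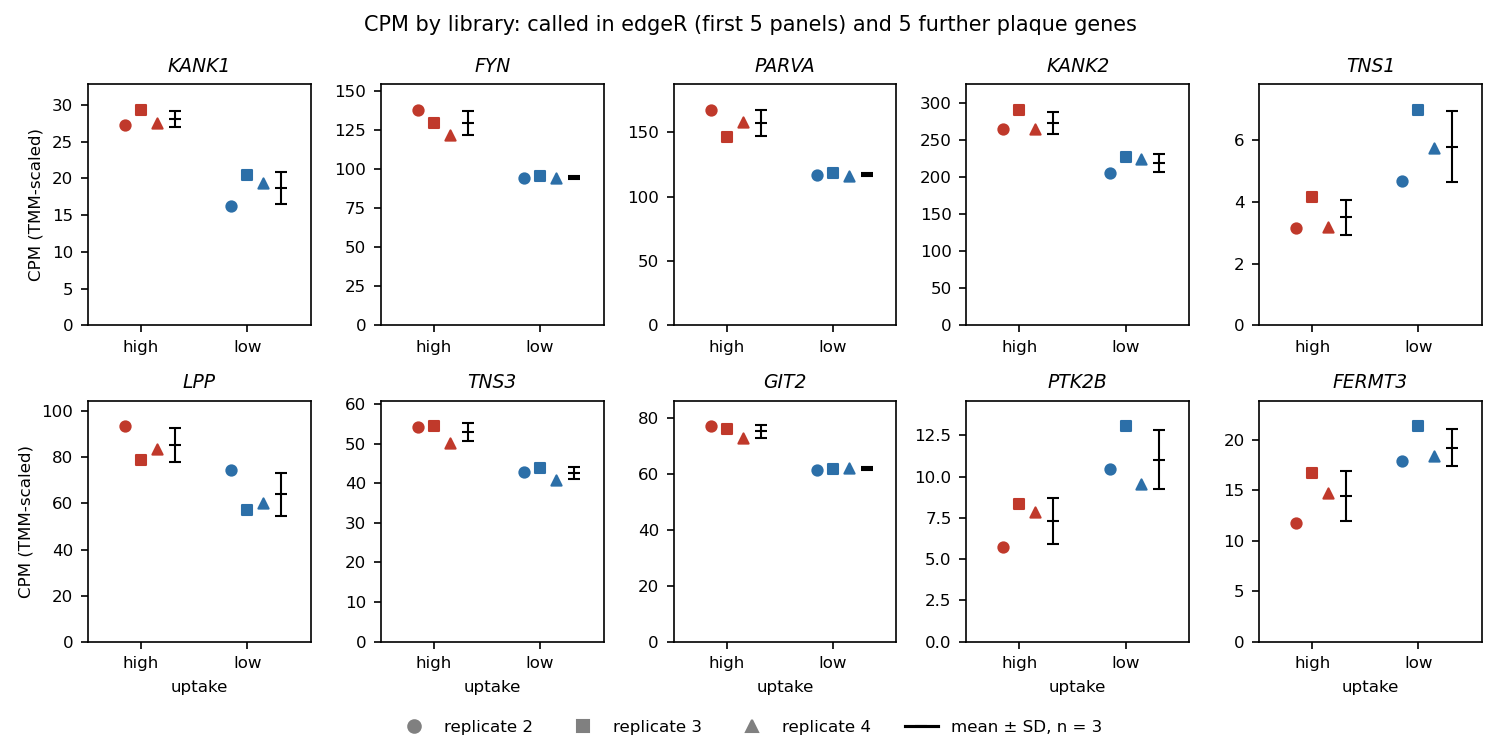
CPM (y axis, TMM-scaled, from 0) of 10 plaque genes in each high-uptake and low-uptake library, with mean and SD (n = 3 each) beside the points. In all 10 panels the high and low points do not overlap, and TNS1, PTK2B and FERMT3 are lower in high uptake.

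Further members short of the threshold also had groups without overlap. GIT2, an Arf GTPase-activating scaffold, had 77.1, 76.1 and 72.9 CPM in the high-uptake libraries, against 61.4, 62.0 and 62.4 CPM in low uptake (log2 0.28, SE 0.0771, edgeR adjusted p = 0.0647). Its close relative GIT1 stood at 121 ± 17.9 CPM in the high-uptake libraries, against 137 ± 12.4 CPM in low uptake, with overlap (log2 -0.19, edgeR adjusted p = 0.406). ARHGEF7, which encodes the GIT-bound exchange factor beta-PIX, had a log2 fold change of 0.04. LPP, a zyxin-family LIM protein, had 93.5, 78.7 and 83.8 CPM in the high-uptake libraries, against 74.8, 57.4 and 60.0 CPM in low uptake (log2 0.41, SE 0.111, edgeR adjusted p = 0.0627). The lowest high-uptake library was only slightly above low replicate 2, and removal of the length trend lowered the log2 fold change to 0.22. FERMT3, the kindlin gene best known from blood cells, had 11.8, 16.7 and 14.7 CPM in the high-uptake libraries, against 17.9, 21.3 and 18.4 CPM in low uptake (log2 -0.43, SE 0.133, edgeR adjusted p = 0.0982). In all, 11 plaque genes lay higher in every high-uptake library than in every low-uptake library, or 25.0% of the 44, against 13.0% of all genes, and 3 lay lower, or 6.82% against 11.4%. DESeq2 called 9 plaque genes of 46, namely the 5 above with LPP, TNS3 and GIT2 higher and PTK2B lower. Of all genes it called 4.11%, here of 20608, which include many with too few counts for the edgeR test.

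None of the talin, kindlin, vinculin and paxillin genes passed in edgeR, DESeq2 or limma-voom, and FERMT3, PXN and LPXN had an unadjusted p under 0.05 in edgeR. TLN1, the main talin gene, had 944, 1135 and 961 CPM in the high-uptake libraries, against 913, 1015 and 1015 CPM in low uptake (log2 0.05, SE 0.0865). The groups overlapped, and 2 SE on either side span 0.916-fold to 1.16-fold. VCL, which encodes vinculin, had 551, 565 and 586 CPM in the high-uptake libraries, against 522, 536 and 538 CPM in low uptake. Its groups were separate by a small margin, and the difference did not pass (log2 0.09, edgeR adjusted p = 0.508). Exons of VCL overlap those of AP3M1 on the opposite strand over 1109 bases. In all, 23 of the 46 plaque genes overlap exons of another gene in the GENCODE annotation, 21 of them on the opposite strand, and whether reads were counted by strand is not given in the sources used here. These include KANK1 (AL392089.1, same strand, 425 bases), TNS1 (AC010136.1, 38 bases), LPP (LPP-AS2, 80 bases), GIT2 (AC084876.1, 458 bases) and FERMT3 (TRPT1, 88 bases), and none was found for FYN, PARVA or KANK2. TLN2 stood at 67.8 ± 4.87 CPM in the high-uptake libraries, against 59.4 ± 3.07 CPM in low uptake (log2 0.19, edgeR adjusted p = 0.287). The kindlin genes FERMT2 and FERMT1 had log2 fold changes of 0.04 and 0.02. Among the paxillins, PXN stood at 434 ± 33.4 CPM in the high-uptake libraries, against 376 ± 25.8 CPM in low uptake (log2 0.20, edgeR adjusted p = 0.217). LPXN (leupaxin) stood at 81.2 ± 3.69 CPM in the high-uptake libraries, against 67.4 ± 5.44 CPM in low uptake (log2 0.27, edgeR adjusted p = 0.115), and TGFB1I1 (Hic-5) had a log2 fold change of 0.08.

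The 4 actin crosslinkers were among the most abundant plaque genes and none passed, either here or at an unadjusted p under 0.05. FLNA, which encodes filamin A, had 866, 1157 and 999 TPM in high replicates 2, 3 and 4, against 931, 1103 and 1070 TPM in low replicates 2, 3 and 4. The groups overlapped throughout (log2 -0.07, SE 0.110), and 2 SE on either side span 0.816-fold to 1.11-fold. ACTN4 had 616, 749.6 and 651 TPM in high uptake and 579, 667 and 642 TPM in low uptake. ACTN1 had 327, 391 and 355 TPM in high uptake and 324, 356 and 345 TPM in low uptake. In both alpha-actinin genes replicate 3 was the highest library of its group, and their log2 fold changes were 0.06 and 0.03. ZYX, which encodes zyxin, had 414, 535 and 515 TPM in high uptake and 481, 539 and 526 TPM in low uptake (log2 -0.12, SE 0.101, edgeR adjusted p = 0.602). VASP and ENAH, the Ena/VASP genes, had log2 fold changes of -0.07 and 0.04. TRIP6, LASP1, PDLIM5, PDLIM7 and TES, all LIM-domain genes, ranged from -0.15 for TES to 0.11 for LASP1.

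Levels of the plaque genes covered a wide range. By mean TPM over the 6 libraries, FLNA, ACTN4 and ZYX exceeded 500 TPM, 14 genes reached 100 TPM and 37 of 46 reached 10 TPM. FLNA stood at 1007 ± 145 TPM in high uptake and 1035 ± 91.2 TPM in low uptake (SD, n = 3 each), ahead of ACTN4 at 673 ± 69.0 TPM in high uptake and 629.5 ± 45.2 TPM in low uptake. ZYX, at 488 ± 65.1 TPM in high uptake and 516 ± 30.4 TPM in low uptake, was followed by ACTN1, at 358 ± 31.9 TPM in high uptake and 342 ± 16.5 TPM in low uptake. FLNC, TLN1, ILK, TRIP6, VCL and PXN came next, at 307 to 233 TPM over all 6 libraries, and neighbours among them lay within their spread. At the low end, TES averaged 1.83 TPM, TNS1 1.09 TPM and LIMS2 0.364 TPM. TNS4 and NEDD9 averaged 0.0355 and 0.0279 TPM. Of the 5 called genes, KANK2 stood highest at 115 TPM, then FYN at 70.4, PARVA at 38.3, KANK1 at 8.49 and TNS1.

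**Figure D3:**
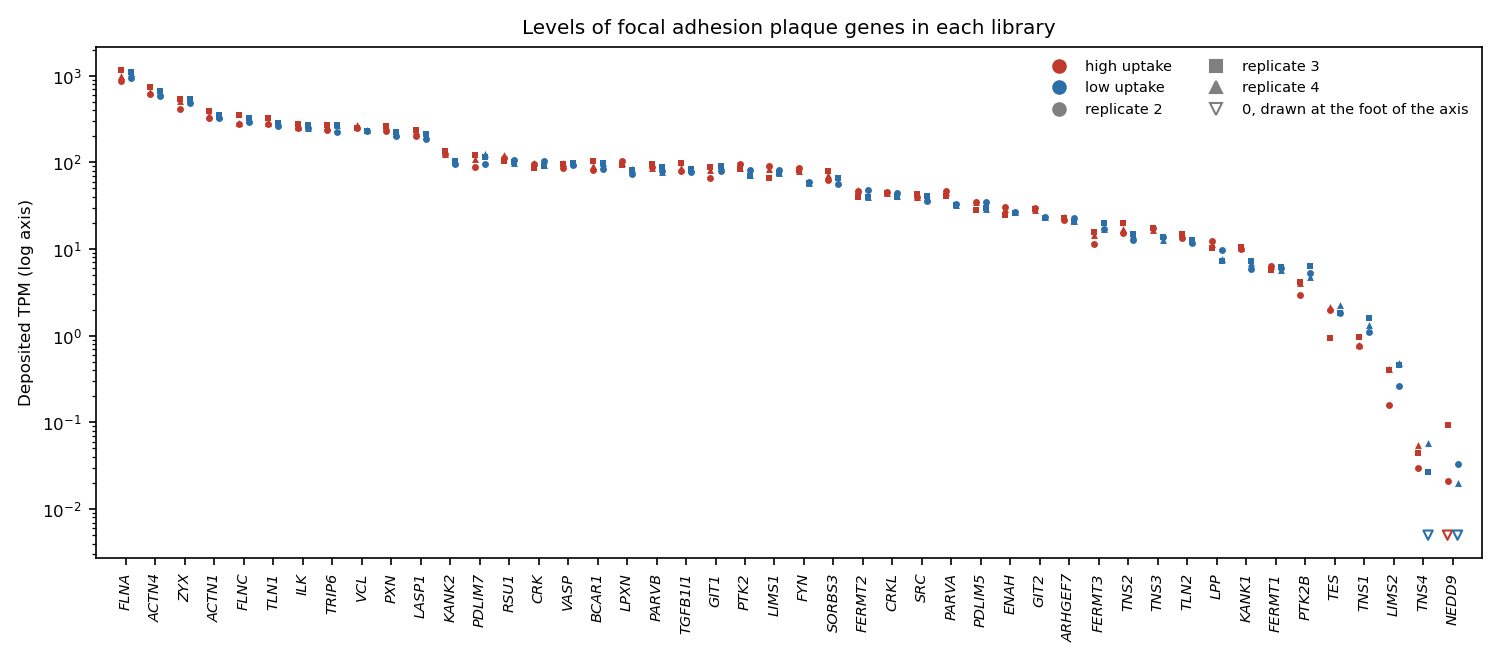
Deposited TPM (y axis, log scale) of all 46 plaque genes in each library, ordered by mean level. FLNA leads at about 1021 TPM on average, and the high and low points of most genes lie on each other.

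Related genes were unequally used, and some of these balances differed between the groups. The pairs were chosen after the values were seen, so no test was made. TNS1 made up 2.25%, 2.56% and 2.26% of tensin TPM in high uptake, against 4.04%, 5.35% and 4.65% in low uptake. The remaining tensin TPM was almost all TNS2, at 49.0% ± 3.33 in high uptake and 48.5% ± 2.30 in low uptake, and TNS3, at 48.5% ± 3.50 in high uptake and 46.8% ± 2.87 in low uptake. PTK2B made up 2.97%, 4.76% and 4.49% of the FAK and PYK2 pair in high uptake and 6.10%, 8.43% and 6.17% in low uptake. PARVA held 34.7%, 30.0% and 34.3% of parvin TPM in high uptake and 29.0%, 26.5% and 29.1% in low uptake. KANK1 held 7.42% ± 0.115 of KANK TPM in high uptake and 6.21% ± 0.379 in low uptake. For these 4 genes the shares of the groups did not overlap. Nor did those of TLN2, at 4.42% to 4.88% of talin TPM in high uptake and 4.11% to 4.26% in low uptake. Such shares were not computed over all genes, so there is no background to set beside them. FERMT2 was the main kindlin gene at 69.1% ± 3.74 in high uptake and 63.9% ± 3.38 in low uptake, TLN1 held 95.1% or more of talin TPM in every library and LIMS1 between 99.4% and 99.8% of PINCH TPM. ACTN4 held 65.3% ± 0.508 of alpha-actinin TPM in high uptake and 64.8% ± 0.565 in low uptake, and FLNA 76.6% ± 1.07 of filamin TPM in high uptake and 77.0% ± 0.640 in low uptake.

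**Figure D4:**
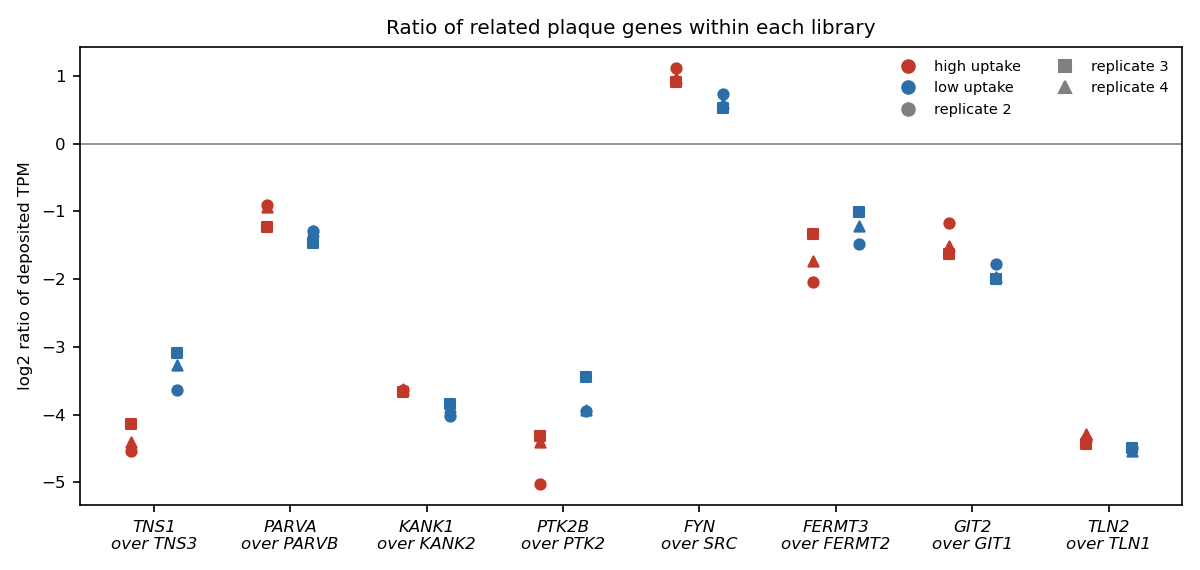
Log2 ratio of deposited TPM (y axis) between 8 pairs of related plaque genes in each high-uptake and low-uptake library. TNS1 over TNS3 averages -4.36 in high uptake and -3.33 in low uptake, and FYN over SRC 1.00 in high uptake and 0.63 in low uptake.

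Plaque genes also varied between libraries, along with their GC content. For replicates 2 and 3 the relation with GC content had the same sign in both groups. For replicate 4 it was negative in high uptake and positive in low uptake, so there it differed between the groups. Within high uptake, replicate 3 was highest for 27 of the 44 tested genes and replicate 2 lowest for 26. Within low uptake, replicate 3 was highest for 26 and replicate 2 lowest for 29. The 29 genes with high replicate 3 above high replicate 2 had a median GC content of 59.1%, and the other 15 one of 44.2%. In low uptake the same split gave 57.7% for 34 genes and 42.3% for 10. Across the 44 genes, which share their libraries, each gene's deviation from its own mean had a Spearman rho with GC content of -0.77, 0.51 and -0.54 in high replicates 2, 3 and 4 and of -0.41, 0.68 and 0.52 in low replicates 2, 3 and 4. Over all tested genes, the correlation of such deviations with gene length ran from 0.0231 to 0.144 in high uptake and from -0.183 to 0.0167 in low uptake, so it moved with the groups. Among plaque genes the log2 fold change had a Spearman rho of 0.25 with length and of -0.35 with GC content, as a description over 44 genes. With the GC trend removed, TNS3, TNS2, LPP, LPXN, PXN, PTK2, GIT2, TLN2 and SORBS3 passed as higher, beside the 4 above. FERMT3, GIT1 and PTK2B passed as lower beside TNS1, and no log2 fold change of these 12 moved by more than 0.02. With the length trend removed instead, none of the 12 passed, the log2 difference of LPP was 0.22 (edgeR adjusted p = 0.222) and that of TLN2 was 0.06 (edgeR adjusted p = 0.831).

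Other genes of the adhesion pathway came from 4 lists that hold no plaque gene, and their shares are set beside the 3.03% of all genes that rose and the 1.26% that fell. Of 20 tested integrin subunit genes 6 rose, or 30.0%, and none fell (median log2 0.29). ITGA11 stood at 62.6 ± 7.39 CPM in the high-uptake libraries, against 35.8 ± 5.56 CPM in low uptake (log2 0.81), and ITGA2, ITGB3 and ITGA7 had log2 fold changes of 0.52, 0.45 and 0.50. When libraries were omitted in turn, ITGA11 and ITGA2 passed in 6 of 6 cases, ITGB3 in 5, ITGA7 in 4, and ITGA4 and ITGB1 in 2 each. The call of ITGB3 was lost without low replicate 4 (edgeR adjusted p = 0.0659), and that of ITGA7 when either high replicate 2 or low replicate 4 was omitted (at most 0.0604). Those of ITGA4 and ITGB1 needed each of high replicates 2 and 4 and low replicates 3 and 4 (adjusted p up to 0.107 for ITGA4 and 0.175 for ITGB1). Of 38 actomyosin and RhoA genes 2 rose, or 5.26%, and none fell (median 0.03). MYLK, which encodes the kinase that activates non-muscle myosin, stood at 416 ± 18.1 CPM in the high-uptake libraries, against 260.0 ± 17.8 CPM in low uptake (log2 0.68, SE 0.0777, edgeR adjusted p = 0.00109), and kept its call in all 17 alternatives. TPM1, a tropomyosin gene, rose by 0.32 on the log2 scale, a call lost without 5 of the 6 libraries in turn. Its exons overlap those of TPM1-AS on the opposite strand over 1962 bases, those of MYLK overlap MYLK-AS1 over 133 bases and those of ITGA7 overlap METTL7B over 44 bases. ITGB3 overlaps AC068234.1 on the same strand over 2266 bases. Of 9 genes of the cortical complex that KANK proteins and liprins organise beside adhesions, ERC1 (log2 0.32) and PPFIBP1 (log2 0.41) rose, or 22.2%, and none fell. Omitting any single library ended the ERC1 call (adjusted p between 0.0612 and 0.171). For PPFIBP1 this held for high replicates 2 and 4 and low replicates 3 and 4 (adjusted p up to 0.199). Of 53 further adaptors and signalling genes none passed in edgeR. An unadjusted p under 0.05 in edgeR was found for 7 of them, a smaller share than the 2679 of all 14598 tested genes. Among the 53, limma-voom called 0 and DESeq2 called 3, all higher (PDLIM1, SORBS2 and SVIL). With the GC trend removed, against 10.2% of all genes higher and 7.72% lower, 8 integrin genes were higher and 0 lower, 7 actomyosin genes higher and 1 lower (ARHGEF2), 2 cortical genes higher and 1 lower (ERC2), and 6 of the 53 higher and 0 lower.

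Start-site windows of called plaque genes are shown, for 3 that rose (KANK1, KANK2 and FYN) and for TNS1, which fell. They cover the 250 bases before a RefSeq start, on build GRCh38.p14, and capitals mark matches on either strand to GGAATG (TEAD), TGANTCA (AP-1), GGGCGG (GC box) or the CArG box of SRF. RefSeq lists 1 start for KANK2, 4 each for KANK1 and FYN and 5 for TNS1, of which the first is printed. Gene counts cannot say which start was used, and no window was given for PARVA.
KANK1, chr9:706803-707052, plus strand: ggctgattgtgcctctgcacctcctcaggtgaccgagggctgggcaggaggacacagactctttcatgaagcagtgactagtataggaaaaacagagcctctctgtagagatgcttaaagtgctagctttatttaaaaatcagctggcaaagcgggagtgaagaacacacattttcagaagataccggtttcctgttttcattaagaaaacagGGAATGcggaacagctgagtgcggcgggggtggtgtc
KANK2, chr19:11197546-11197795, minus strand: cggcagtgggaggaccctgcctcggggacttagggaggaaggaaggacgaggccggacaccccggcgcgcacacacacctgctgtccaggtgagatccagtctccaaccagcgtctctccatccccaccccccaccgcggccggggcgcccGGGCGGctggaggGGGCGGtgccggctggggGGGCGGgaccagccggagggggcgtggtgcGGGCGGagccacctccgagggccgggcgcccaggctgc
FYN, chr6:111873453-111873702, minus strand: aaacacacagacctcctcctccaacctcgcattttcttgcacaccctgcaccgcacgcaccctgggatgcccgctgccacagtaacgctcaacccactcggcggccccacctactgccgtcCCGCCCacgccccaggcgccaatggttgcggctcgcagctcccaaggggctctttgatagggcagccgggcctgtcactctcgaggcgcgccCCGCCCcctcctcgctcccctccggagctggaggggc
TNS1, chr2:218010276-218010525, minus strand: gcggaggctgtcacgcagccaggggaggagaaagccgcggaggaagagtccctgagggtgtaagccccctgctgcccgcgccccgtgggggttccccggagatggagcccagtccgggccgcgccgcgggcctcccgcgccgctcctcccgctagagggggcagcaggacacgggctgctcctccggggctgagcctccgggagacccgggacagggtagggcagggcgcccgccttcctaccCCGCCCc
The KANK2 window held 4 GC boxes, that of FYN 2 and that of TNS1 1, and the KANK1 window held a TEAD match and no GC box. Of the windows not printed, the second start of KANK1 held 2 GC boxes, the second start of FYN held 8, and starts 2 and 4 of TNS1 each held a TEAD match. Windows with a GC box made up 42.6% of all 35116 windows and those with a TEAD match 11.9%.

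The CArG box, the site of serum response factor, was found in the windows of 6 of the 39 plaque genes that have one, and these sites are printed because many adhesion genes are known targets of that factor. All 6 are shown with up to 20 bases on each side, the site in capitals.
FLNA, chrX:154374699-154374748, minus strand: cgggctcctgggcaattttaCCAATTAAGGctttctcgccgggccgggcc
ACTN1, chr14:68977708-68977757, minus strand: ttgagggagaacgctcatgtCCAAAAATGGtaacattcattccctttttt
RSU1, chr10:16817464-16817513, minus strand: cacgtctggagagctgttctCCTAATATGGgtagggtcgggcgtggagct
TGFB1I1, chr16:31473134-31473183, plus strand: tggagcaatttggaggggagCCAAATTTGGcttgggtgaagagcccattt
LPP, chr3:188212509-188212558, plus strand: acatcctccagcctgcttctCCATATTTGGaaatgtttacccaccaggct
TES, chr7:116222703-116222740, plus strand: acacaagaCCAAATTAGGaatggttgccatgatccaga
By gene these were 15.4%, against 1.44% of all 27305 genes with a window, and by window 6.9% of 87 against 1.16% of all windows, where all genes include non-coding ones and a gene may have several windows. The TES site shares bases with a TEAD match. None of the 6 passed the test between high and low uptake, with log2 fold changes from -0.15 for TES to 0.41 for LPP, and FLNA at -0.07. By gene, TEAD matches were found in 23.1% of the 39 plaque genes against 14.3% of all genes, AP-1 matches in 20.5% against 8.06% and GC boxes in 84.6% against 46.2%. The 39 plaque genes had 87 windows and all 27305 genes had 35116, and a gene with more windows has more room for a match. By window the TEAD shares were close, at 12.6% against 11.9%. Those of AP-1 were 11.5% against 6.57%, and those of GC boxes 50.6% against 42.6%. A match is a description of the letters in these windows and no evidence of binding.

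The authors' deposited list of differential genes, which carries no values or direction, held 14 of the 44 tested plaque genes, or 31.8%, against 15.8% of all tested genes. All 5 genes called here were in the authors' deposited list, and the other 9 were FERMT3, GIT2, LPP, LPXN, PTK2, PTK2B, PXN, TNS2 and TNS3. All 9 had adjusted p-values above the threshold in the edgeR test. The 14 in the list were the same 14 plaque genes that had an unadjusted p under 0.05 in that test, and all 9 also passed with the GC trend removed. By its name the list used a p-value of 0.05, which the name does not call adjusted. Over all 14598 tested genes, 2679 had an unadjusted p under 0.05 in edgeR. They included 2244 of the 2302 listed genes tested here, so the match is not particular to plaque genes.

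**Figure D5:**
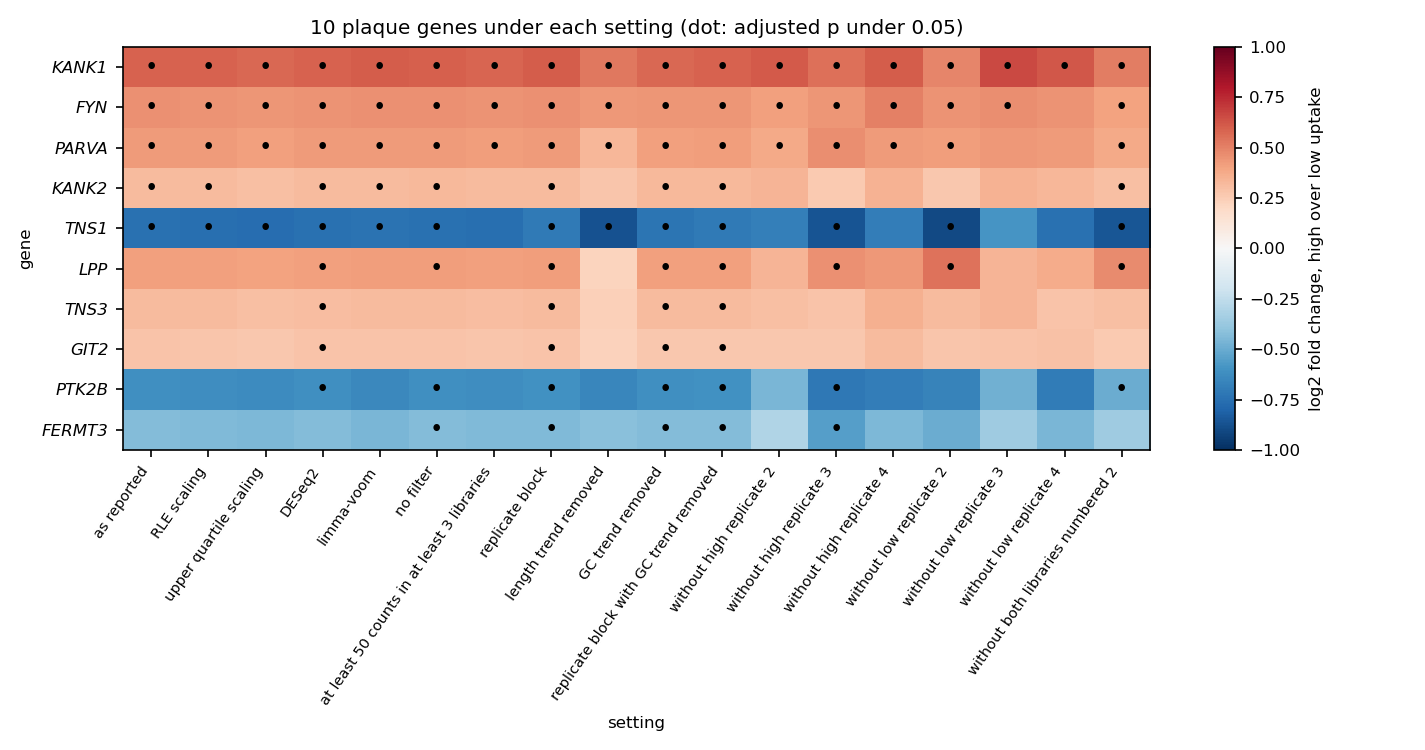
Log2 fold change (colour, high over low uptake) of 10 plaque genes (rows) under the reported and 17 alternative settings (columns), with a dot where the adjusted p was under 0.05. KANK1 has a dot in every column, KANK2 in none of those that leave out 1 library, and no gene changes colour.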

How the data were processed

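The 6 RNA-seq libraries (3 of high and 3 of low peptide uptake, U87 cells) came from a directional kit, per the labels' protocols. Per the submitters' processing notes, the authors used fastp, STAR and featureCounts on hg19, with versions, annotation and strand setting not given in the sources used. The deposited files hold whole read counts per gene, and the authors' FPKM and TPM values beside them, per the file headers. Counts were tested, FPKM served to recover gene length, and TPM gave levels between genes. Intervals cover the spread between libraries only.

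Groups and replicate numbers came from sample titles. R 4.3.3 was used with edgeR 4.0.16: filterByExpr (minimum count 10, minimum total 15) kept 14598 of 25680 genes, followed by TMM scaling and a robust two-sided quasi-likelihood F-test with no covariate. The standard error was the log2 fold change over the square root of F. CPM were TMM-scaled. GC content came from the longest GENCODE transcript (14103 of the 14598 tested genes and all 46 plaque genes). Trends were removed as offsets by lowess (span 0.3). Alternatives were RLE and upper quartile scaling, DESeq2 1.42.0, limma-voom 3.58.1, other filters, a replicate block, length and GC trends and omission of libraries. The pipeline was tested on simulated counts. Promoter windows came from RefSeq (39 of 46 genes matched by symbol). FERMT1, PARVA, PTK2, PTK2B, SORBS3, SRC and TNS4 had none.

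Members, gene lists and alternatives were chosen with earlier results of these data known, and motifs and pairs of related genes after the values were seen. Every member is accounted for. Values per library are given for those past the threshold, those that DESeq2 called and the 4 with the highest mean TPM, with means for those that pass with the replicate block. Values of SRC, ILK, TLN1 and VCL are given too, chosen after their values were seen. PTK2 and FERMT3, which pass with the replicate block, are also given per library. Up to 4 called genes of smallest p in each pathway list are named, and further genes where a call depended on the setting or on single libraries.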

Additional observations from a re-analysis of the deposited data

How the results depend on the processing

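As reported, 626 genes were called, with 4 plaque genes higher and 1 lower. DESeq2 gave 7 higher and 2 lower (4.11% of 20608 genes called), and edgeR with no filter gave 5 higher and 3 lower (4.31% of 20608). Requiring 50 counts in 3 or more libraries gave 3 higher and 0 lower (4.25%), with TNS1 at an edgeR adjusted p of 0.0506. Removal of the GC trend gave 2620 genes, 13 higher and 4 lower. With the replicate number as a block, edgeR gave 3176 genes (21.8% of all), 13 higher and 4 lower, and the block with the GC trend removed gave 4069 genes (27.9%), 14 higher and 4 lower. Same-numbered libraries deviated together with correlations of 0.45, 0.30 and 0.087 for numbers 2, 3 and 4, so not every pair passed 0.1, and 5 of 6 libraries correlated best with their own number. The labels do not say that numbers mark pairs. Without 1 library in turn, 232 to 738 genes were called (1.55% to 4.92%), with 1 to 4 plaque genes higher and 0 to 3 lower. Without both libraries numbered 2, 788 genes were called (5.51%), with 5 plaque genes higher and 2 lower. The cause of these changes was not tested. The median of the plaque genes stayed within the spread between libraries (0.02 to 0.08). Of 917 values of single named genes under alternatives, 816 kept their side of the threshold, 50 gained a call and 51 lost one. The sign changed in 43 of these values, over 17 genes, with 0 of them called in either setting.

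Depth limits TNS1, TES, LIMS2, TNS4 and NEDD9, whose counts were low.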
